A study of Zea mays with 24 samples.

Results

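PIN1a (Zm00001d044812) and PIN1b (Zm00001d018024) are auxin efflux carrier genes of maize (Zea mays), and their transcript levels were measured by RNA sequencing across the root tip. The pair was chosen by identifier, and both identifiers, 2 of the 39510 in the deposited table, were found. The names ZmPIN1a and ZmPIN1b came with the choice of identifiers, since the deposited table holds identifiers alone and the supplied RefSeq table matched 0 of them. There were 24 libraries, 3 in each of 8 groups, all from plants 7 days after germination grown at 26 °C. Quiescent center cells were sorted as protoplasts from a line carrying ZmWOX5::RFP, and endodermis cells from a line carrying ZmSCR::RFP, both in a B73/Hi-II background. In these lines the promoter of the named gene marks the cells that were collected. Stele, cortex and epidermis cells came from wild-type B73, whose protoplasts were sorted after 15 min in the dyes syto 40 and syto 81. Root cap was dissected from wild-type B73 tips. Unsorted protoplasts and intact tips, both wild-type B73 and both without cap, served as controls. Sorting method and background therefore differ between the reporter groups and all others, and cannot be told apart from tissue for the quiescent center and the endodermis.

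PIN proteins are carriers of the plasma membrane that move the hormone auxin out of cells, and their placement on a given face of the cell sets the direction in which auxin flows. In roots, auxin travels through the stele towards the tip, and a maximum forms around the quiescent center, the group of rarely dividing cells that maintains the surrounding stem cells. Maize carries several genes of this family, of which PIN1a and PIN1b are the pair described here. The endodermis is the innermost layer of the ground tissue, the cortex forms the layers outside it, the epidermis is the outer layer, and the root cap covers the tip.

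Values are normalized reads per gene, deposited by the authors after division by a size factor for each library. They are not divided by gene length, so the level of PIN1a was not set against that of PIN1b, and each gene was compared with itself across groups. Recovered reads ranged from 21978670 to 50289026 per library, and 1 read was worth 0.604 to 1.49 normalized units. A gene was called when the limma test on log2(value + 1) gave an adjusted p below 0.05, over 25555 tested genes, and a log2 difference of at least 1. The labels do not say whether the libraries of a group came from separate plants or sorts, so p-values measure the spread between these libraries, which may be technical. The titles number the third library of epidermis, stele and cortex 3, whereas their descriptions say 2, and the number of the title is used throughout. The tissue labels were not checked against marker genes, because no identifier could be paired with a marker name. Among the cortex libraries, replicate 3 stood apart for both genes, and results that rest on it are given with and without it.

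Among the sorted tissues, PIN1a was highest in the quiescent center and the endodermis and close to absent from the epidermis. In the quiescent center its normalized values were 684, 649 and 1231, in the endodermis 877, 496 and 238, and in the stele 147, 129 and 152. Every library of these 3 inner tissues held more PIN1a than any library of the 2 outer layers. The share of all tested genes separated in this way was not counted. Cortex libraries had 3.19, 8.0 and 78.3, resting on 3, 8 and 58 reads. Epidermis libraries had 0, 2.02 and 0, a total of 2 reads in the 3 libraries, for which counting error alone allows 0.242 to 7.22 reads (exact Poisson 95% interval). As in all bulk samples, fewer cells of a type that holds the transcript and less transcript per cell cannot be told apart. Averaged over libraries (SD, n = 3 each), PIN1a stood at 855 ± 326 in the quiescent center, 537 ± 321 in the endodermis, 143 ± 12 in the stele, 29.8 ± 42.1 in the cortex and 0.674 ± 1.17 in the epidermis.

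**Figure D1:**
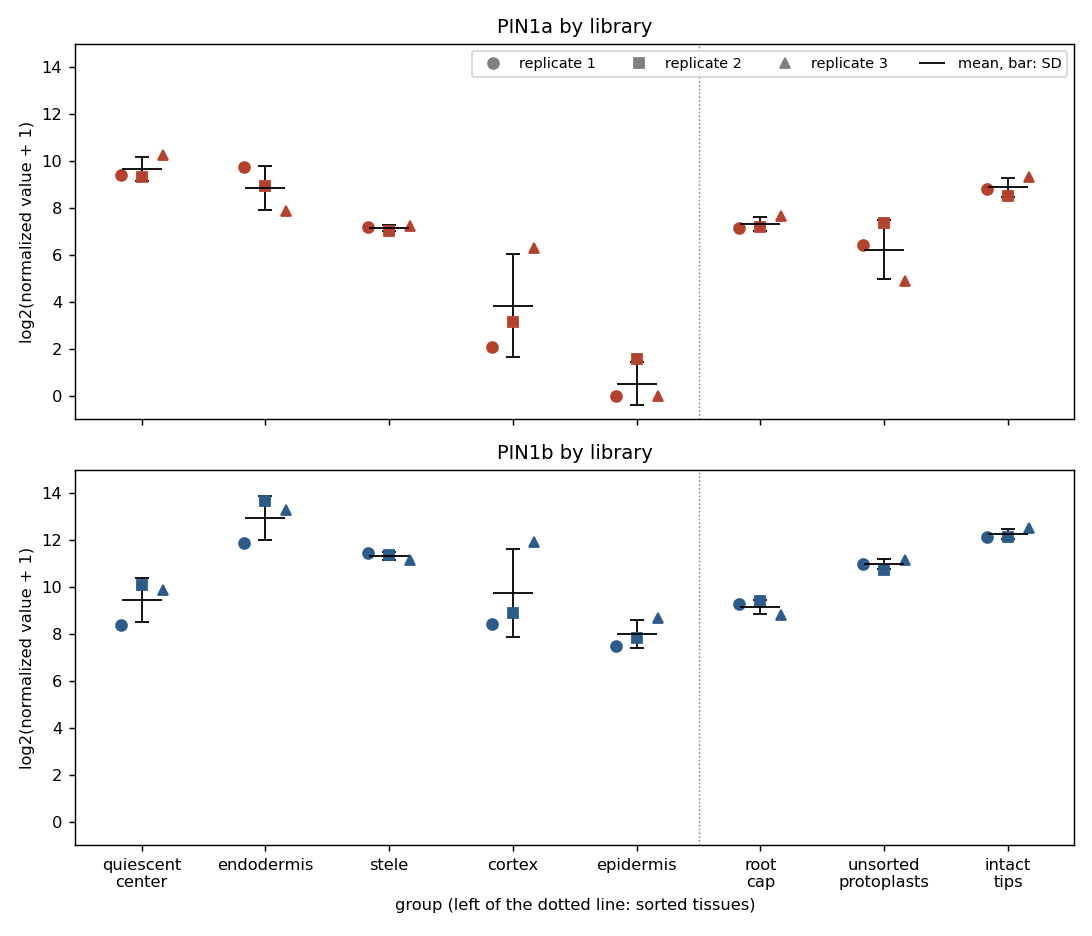
Levels of PIN1a (upper panel) and PIN1b (lower panel) in the 24 libraries, as log2(normalized value + 1), with the group on the horizontal axis. Each point is a library, the symbol gives its replicate number, the short line is the group mean and the bar 1 SD. PIN1a falls from the inner to the outer sorted tissues, while PIN1b is highest in the endodermis, and cortex replicate 3 lies above the other cortex libraries in both panels.

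The tests set each sorted tissue against the mean of the other 4. PIN1a was higher in the quiescent center by 4.57 log2 units (SE 0.67, limma adjusted p = 1.85e-05), a direction and call shared by 15.8% of tested genes. It was higher in the endodermis by 3.57 log2 units (SE 0.67, limma adjusted p = 7.03e-04), where 8.77% of tested genes were called higher. In the epidermis PIN1a fell by 6.86 log2 units (SE 0.67, limma adjusted p = 1.1e-06), beside 6.93% of tested genes called lower. No epidermis library overlapped any of the other 12 sorted libraries, which ranged from 3.19 to 1231. The share of all tested genes without such overlap was not counted. An exact two-sided permutation test over the 15 sorted libraries gave p = 0.0022, the smallest that the design allows, and an adjusted p of 0.011 for the epidermis. Adjusted p-values of exact tests, here and below, are over the 5 sorted tissues and not over all tested genes. The same exact test did not pass for the quiescent center (adjusted p = 0.0824) or the endodermis (adjusted p = 0.227), each of which is set there against libraries that include the other.

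The size of the epidermal difference depends on the constant added before the logarithm, and with 10 in place of 1 it fell by 4.25 log2 units. On recovered reads, the PIN1a level of the epidermis was 0.0803% of that of the quiescent center, with a 95% counting interval of 0.00972% to 0.29%. Set against the cortex, it was 2.54% (95% counting interval 0.302% to 9.53%). Cortex replicate 3 gave 58 of the 69 cortex reads, and without it the share was 11.5% (95% counting interval 1.24% to 52.8%), an alternative chosen after seeing the data. Such intervals reflect the error of counting alone and leave out the spread between libraries. They may also be too narrow, because reads copied in amplification do not each stand for a molecule.

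For the stele, PIN1a was 1.43 log2 units above the mean of the other sorted tissues (95% interval 0.02 to 2.84) and was not called (limma adjusted p = 0.2), while 5.96% of tested genes were called higher there. Its 3 libraries were tightly grouped, with 6 of the 12 other sorted libraries above all of them and 6 below. Without cortex replicate 3 the difference was 1.74 log2 units and was called (limma adjusted p = 0.0436). Against cortex and epidermis alone, the stele held 4.97 log2 units more PIN1a (limma adjusted p = 1.49e-04). In the cortex, PIN1a fell by 2.71 log2 units (SE 0.67, limma adjusted p = 0.0133), beside 2.87% of tested genes called lower. That call was lost without cortex replicate 1 (−1.82, limma adjusted p = 0.195) or cortex replicate 2 (−2.37, limma adjusted p = 0.0684), with edgeR on recovered reads (−1.51, adjusted p = 0.28) and in the exact permutation test (adjusted p = 0.379). Without cortex replicate 3 it was −3.94 log2 units (limma adjusted p = 6.87e-04).

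PIN1b had a different summit. Its normalized values were 3776, 12897 and 9948 in the endodermis and 2825, 2648 and 2265 in the stele. Quiescent center libraries had 330, 1092 and 934, all below every stele and endodermis library, a separation not counted over all tested genes. Cortex libraries had 343, 480 and 3826, so that the third lay above every stele library and above the lowest endodermis library. Epidermis libraries had 178, 227 and 409, all well above the floor of 3 reads, so PIN1b was detected in each of the 24 libraries. Its group means (SD, n = 3 each) were 785 ± 402 in the quiescent center, 8873 ± 4654 in the endodermis, 2579 ± 286 in the stele, 1550 ± 1973 in the cortex and 272 ± 122 in the epidermis. The epidermal mean of PIN1b was 3.06% of its endodermal mean.

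PIN1b rose in the endodermis by 3.31 log2 units against the other 4 sorted tissues (SE 0.51, limma adjusted p = 1.04e-04). The exact two-sided permutation test gave p = 0.0044 for it (adjusted p = 0.022), and 11 of the 12 other sorted libraries lay below the lowest endodermis library, the exception being cortex replicate 3. How many tested genes overlap as little was not counted. In the epidermis PIN1b fell by 2.86 log2 units (SE 0.51, limma adjusted p = 5.84e-04), with an exact permutation p of 0.0176 (adjusted p = 0.044). Both genes were thus called higher in the endodermis, where 8.77% of tested genes were, and both lower in the epidermis, where 6.93% were.

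In the stele PIN1b was 1.29 log2 units above the other sorted tissues (95% interval 0.23 to 2.36), and it was not called (limma adjusted p = 0.121). The call was made without cortex replicate 3 (1.56, limma adjusted p = 0.00744) and with weights per group that all genes share (limma adjusted p = 0.0258). Against cortex and epidermis alone PIN1b was 2.45 log2 units higher in the stele (limma adjusted p = 0.00543). In the cortex the difference from the other 4 tissues was −0.68 (95% interval −1.75 to 0.39, limma adjusted p = 0.461), and cortex replicate 3 decided it. Without that library it was −1.76 and was called (limma adjusted p = 0.0114), while edgeR on all recovered reads gave 0.059 (adjusted p = 0.98). In the quiescent center PIN1b was 1.06 log2 units below the other 4 tissues (−1.06, 95% interval −2.13 to 0.01), and it was not called (limma adjusted p = 0.0907), beside 28.8% of tested genes called lower. It was called there without cortex replicate 1 (−1.22, limma adjusted p = 0.0391).

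**Figure D2:**
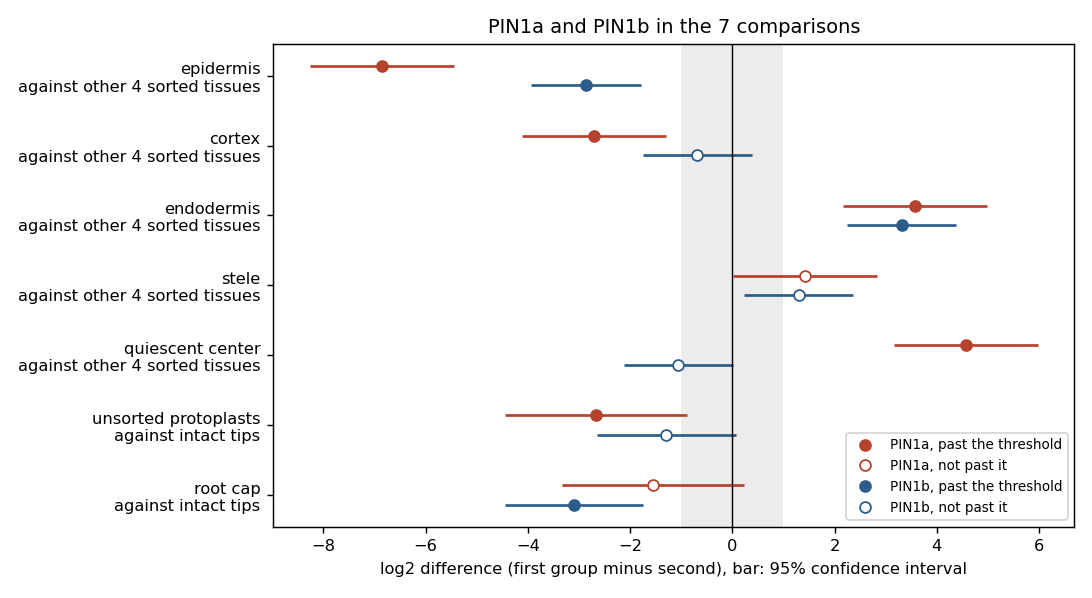
Log2 differences of PIN1a and PIN1b in the 7 comparisons, first group minus second, with the 95% confidence interval of the limma fit as a bar. Filled circles passed an adjusted p of 0.05 and a log2 difference of at least 1 (the grey band marks smaller differences), and open circles did not. The genes lie on the same side of 0 in 6 comparisons and on opposite sides in the quiescent center.

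Of the sorted tissues, the quiescent center was where the genes parted most. All tested genes had a median log2 difference of −0.49 there, and relative to that median PIN1a stood 5.06 log2 units higher and PIN1b 0.57 lower (−0.57). Compared directly with the stele, PIN1a was 2.51 log2 units higher in the quiescent center (SE 0.85, limma adjusted p = 0.0242), where 12.4% of tested genes were called higher. PIN1b fell by 1.88 log2 units in the same comparison (SE 0.65, limma adjusted p = 0.0259), where 25.5% were called lower. This was the 1 pair of groups in which both genes were called with opposite signs. Both calls were lost with weights per group (limma adjusted p = 0.161 for PIN1a and 0.159 for PIN1b), and without stele replicate 1 (0.0551 and 0.0681) or stele replicate 2 (0.0672 and 0.0654). PIN1a was also no longer called without quiescent center replicate 3 (2.22, limma adjusted p = 0.0716), nor PIN1b without quiescent center replicate 1 (−1.35, limma adjusted p = 0.13).

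Both the quiescent center and the endodermis came from reporter lines, so this pair shares background and sorting by a fluorescent protein, although from different lines. PIN1b fell by 3.49 log2 units in the quiescent center relative to the endodermis (SE 0.65, limma adjusted p = 2.71e-04), beside 23.2% of tested genes called lower. PIN1a differed there by 0.80 log2 units (95% interval −0.98 to 2.58) and was not called (limma adjusted p = 0.483). The intervals of PIN1a in this pair are wide, and a difference of either sign remains within them.

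The balance between the genes was followed as log2(PIN1a + 1) minus log2(PIN1b + 1) in each library. Since neither value is per length, its zero point has no meaning as a ratio of molecules, and only its change between groups was compared. Quiescent center libraries had 1.05, −0.75 and 0.40, and every other sorted library lay below them, the highest being endodermis replicate 1 at −2.10. The mean (SD, n = 3 each) was 0.23 ± 0.91 in the quiescent center, −4.06 ± 1.73 in the endodermis, −4.16 ± 0.24 in the stele, −5.90 ± 0.41 in the cortex and −7.47 ± 1.22 in the epidermis. Against the other 12 sorted libraries, the balance was shifted towards PIN1a in the quiescent center by 5.63 log2 units (exact two-sided permutation p = 0.0022, adjusted over 5 tissues 0.011). How often other pairs of genes shift or separate as far in a tissue was not counted. In the quiescent center, 44.6% of tested genes were called in either direction, so a shift between 2 genes there may be common. With quiescent center replicate 2 or 3 left out, the shift was 6.12 or 5.55 and missed the threshold (exact adjusted p = 0.0549 for both). Without quiescent center replicate 1 it was 5.22 and passed (exact adjusted p = 0.0481). In all 3 tests the unadjusted exact p of 0.011 was the smallest that the remaining splits allow.

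In the epidermis the balance moved the other way, by −4.00 log2 units, with an exact permutation p of 0.0198 and 0.0495 after adjustment over the 5 tissues. This call rests on PIN1a values at or under the floor of 3 reads. It was lost with 10 added in place of 1 (−1.43, exact adjusted p = 0.52) and in 10 of the 15 tests that left out a library. These were the tests without any of the 3 stele or 3 epidermis libraries, quiescent center replicates 2 and 3, and endodermis replicates 1 and 2, with exact adjusted p-values from 0.0549 to 0.192. For the cortex (−2.03, exact adjusted p = 0.462), the endodermis (0.26, exact adjusted p = 0.947) and the stele (0.14, exact adjusted p = 0.947) the balance did not pass the test. Within the endodermis, replicate 1 had the highest PIN1a and the lowest PIN1b of that group, and its balance of −2.10 stood above −4.70 and −5.38 in the others.

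**Figure D3:**
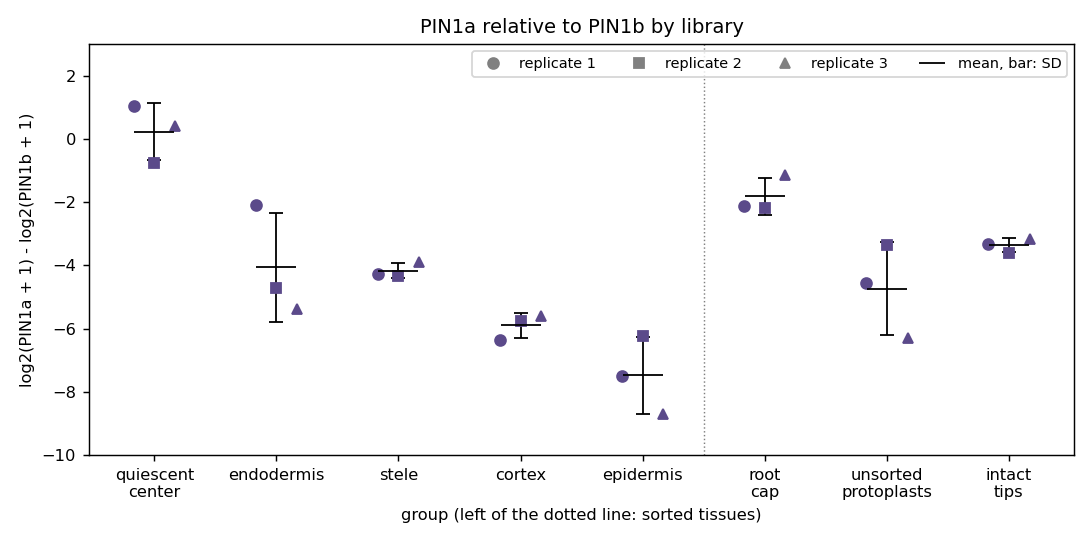
The balance between the genes, log2(PIN1a + 1) minus log2(PIN1b + 1), in each library, by group. Points are libraries with the symbol giving the replicate number, the short line is the group mean and the bar 1 SD. The 3 quiescent center libraries lie above all other sorted libraries, and the epidermis is lowest.

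Cortex replicate 3 was high for both genes, at 3826 for PIN1b and 78.3 for PIN1a, against 343 and 480 for PIN1b and 3.19 and 8.0 for PIN1a in the other cortex libraries. The balance between the genes lay between −6.36 and −5.59 in the 3 libraries. In cortex replicates 1 and 2 it rests on 3 and 8 PIN1a reads, near the floor of 3 reads, so its likeness is uncertain. To see whether this library stood apart for other genes, 1703 genes called higher in both endodermis and stele than in epidermis were taken, a choice that used no contrast with the cortex and left PIN1a and PIN1b out. Their median log2(value + 1) was 7.60 in cortex replicate 3, against 6.22 and 6.13 in cortex replicates 1 and 2. Cortex replicate 3 was the highest of the 3 for 65.2% of these genes, and for 35.2% of all tested genes. For 1174 genes called lower in both endodermis and stele than in epidermis its median was 8.80, between 8.66 and 8.95 in the other cortex libraries. In this library PIN1a and PIN1b were high, as were most of the genes called higher in endodermis and stele than in epidermis. These genes were not set against the cortex, and may include genes of the cortex. The part of the library as a whole in the values of PIN1a and PIN1b was not tested.

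Dissected cap, unsorted protoplasts and intact tips place the genes in whole tissue. PIN1a had values of 141, 146 and 204 in the root cap, of 85.3, 167 and 28.6 in unsorted protoplasts, and of 448, 370 and 649 in intact tips. PIN1b had 614, 671 and 448 in the root cap, 2037, 1718 and 2294 in unsorted protoplasts, and 4501, 4491 and 5808 in intact tips. For both genes every intact tip library lay above every library of the other groups in this set, and the share of all tested genes that do so was not counted. Their order otherwise differed, with PIN1b lowest in the cap and PIN1a lowest in the protoplasts, where its highest library lay within the range of the cap.

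The next comparison set the root cap against root tips without their cap. PIN1b fell by 3.10 log2 units in the cap (SE 0.65, limma adjusted p = 8.51e-04), beside 14.2% of tested genes called lower. The call held without each library in turn, with log2 differences from −3.22 to −2.93. PIN1a was lower by 1.55 log2 units without being called (−1.55, 95% interval −3.34 to 0.23, limma adjusted p = 0.172). When the cap and the tips were fitted alone, PIN1a was called (limma adjusted p = 0.015). The balance was −1.81 ± 0.59 in the cap and −3.36 ± 0.22 in intact tips (SD, n = 3 each), a difference of 1.55 with an exact permutation p of 0.1, the smallest that 3 libraries against 3 allow.

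Unsorted protoplasts, cells freed of their walls, were compared with the intact tips they represent. PIN1a fell by 2.66 log2 units in protoplasts (SE 0.85, limma adjusted p = 0.0338), where 8.58% of tested genes were called lower. This call was lost with edgeR on recovered reads (−2.45, adjusted p = 0.0646) and without protoplast replicate 1 (−2.76, limma adjusted p = 0.0599) or 3 (−1.99, 0.154) or without intact tip replicate 1 (−2.71, 0.0736), 2 (−2.84, 0.0666) or 3 (−2.44, 0.105). PIN1b was 1.29 log2 units lower in protoplasts (−1.29, 95% interval −2.64 to 0.06) and was not called (limma adjusted p = 0.178). It was called when protoplasts and tips were fitted alone (limma adjusted p = 0.00252) and without cortex replicate 3, a library outside the comparison that adds to the shared spread (limma adjusted p = 0.0464). No library of the groups overlapped for either gene, and the share of all tested genes without overlap was not counted. Loss or change of transcript while cell walls were digested, and loss of some cell types at that step, cannot be told apart here.

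All 28 pairs of the 8 groups were tested for each gene, including those that set protoplasts against undigested tissue (intact tips and root cap). PIN1a was called in 16 pairs and PIN1b in 14. Over all tested genes, 21% of the tests in these pairs were called, and the share in a pair ranged from 1.02% (cortex and epidermis) to 39.7% (quiescent center and cortex), with a median of 20.3%. Both genes were called in 8 pairs, in 7 of them with the same sign, and neither was called in 6. Among the 10 pairs of sorted tissues, PIN1a was called in 7 and PIN1b in 5, where 20.4% of tests over all genes were called. Without cortex replicate 3, PIN1a was called in 17 of the 28 pairs and PIN1b in 19. PIN1a was called higher in the quiescent center than in 5 of the other 7 groups, and lower in the epidermis than in 6 of them. Over all tested genes, 9.11% to 16.3% were called higher in the quiescent center, depending on the other group. For lower calls in the epidermis the share was 0.728% to 11.8%. PIN1b was called higher in the endodermis than in 5 of the other groups and lower in the epidermis than in 4 of them, as it was in the root cap. Between 1.2% and 23.2% of tested genes were called higher in the endodermis, depending on the other group. For lower calls in the root cap the share was 6.22% to 14.4%.

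By mean log2 level, PIN1a ran from the quiescent center through intact tips, endodermis, root cap, stele, unsorted protoplasts and cortex to the epidermis. PIN1b ran from the endodermis through intact tips, stele, unsorted protoplasts, cortex, quiescent center and root cap to the epidermis. Both orders mix protoplasts with undigested tissue (intact tips and root cap). Where they set one against the other, tissue and digestion cannot be told apart. Without cortex replicate 3, the quiescent center stood 0.78 log2 units above the cortex in PIN1b (limma adjusted p = 0.228). No neighbours in either order were called different, 0 of 7 pairs for each gene. This holds after adjustment over all tested genes. Before adjustment, the 95% interval excluded 0 for the PIN1a steps between unsorted protoplasts and cortex, and between cortex and epidermis. For cortex minus unsorted protoplasts it was −4.17 to −0.61 around −2.39 (limma adjusted p = 0.0983). For the other steps the interval included 0. The largest of these steps was that of PIN1a from epidermis to cortex. PIN1a was 3.32 log2 units higher in the cortex (95% interval 1.54 to 5.10, limma adjusted p = 0.0662), and the share of tested genes called was 1.02%. This pair passed with edgeR (5.21, adjusted p = 0.0446) and DESeq2 (5.48, adjusted p = 0.00171) on recovered reads, with weights per group (limma adjusted p = 0.0195), and with 0.5 added in place of 1 (3.98, limma adjusted p = 0.0392). With 10 added it was 1.38 log2 units (limma adjusted p = 0.339). It also passed without cortex replicate 1 (4.21, limma adjusted p = 0.0275) or cortex replicate 2 (3.66, limma adjusted p = 0.0492), while without cortex replicate 3 it was 2.09 log2 units (limma adjusted p = 0.235). Endodermis and stele, neighbouring tissues in the root, were not told apart by either gene, with PIN1a 1.72 log2 units (limma adjusted p = 0.376) and PIN1b 1.61 log2 units (limma adjusted p = 0.232) higher in the endodermis, in a pair where 2.84% of tested genes were called. With weights per group, PIN1b passed in this pair (limma adjusted p = 0.0269).

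**Figure D4:**
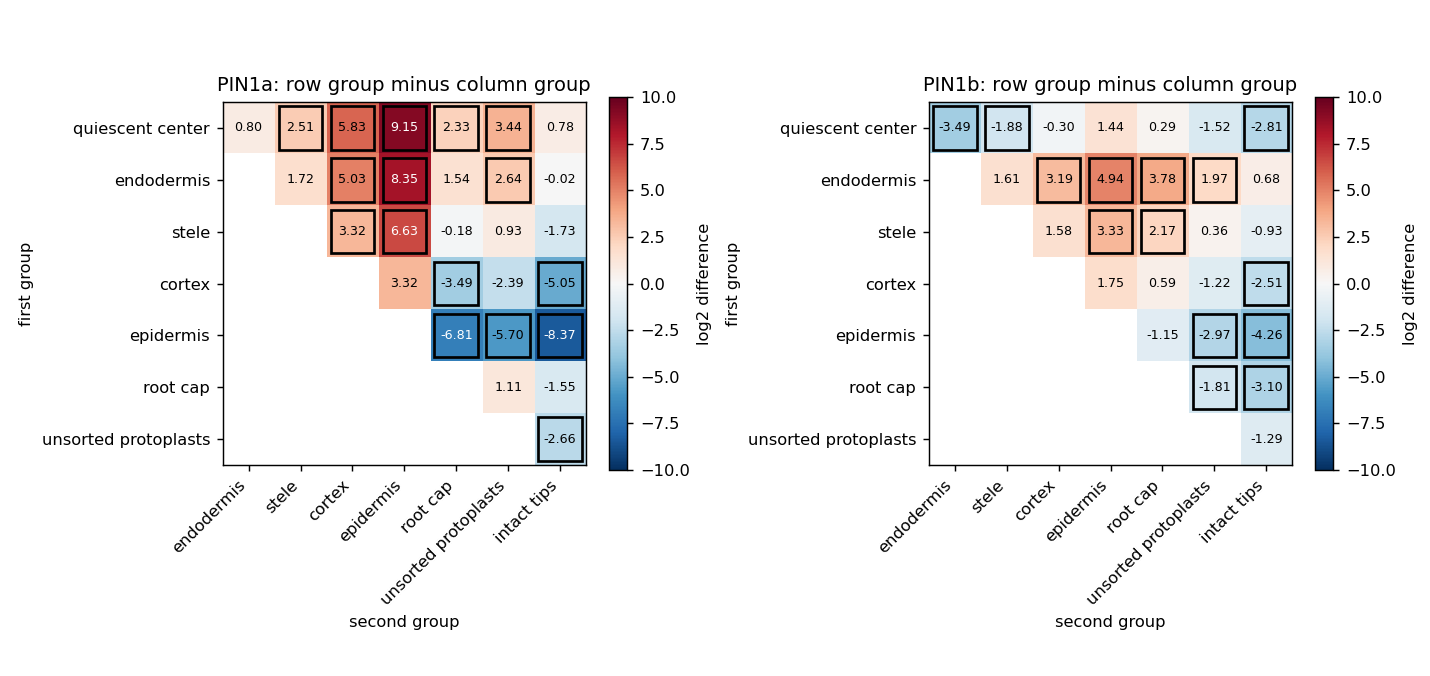
Log2 differences for all 28 pairs of groups, row group minus column group, for PIN1a (left) and PIN1b (right). Red is higher in the row group and blue lower, and a black frame marks pairs that passed an adjusted p of 0.05 and a log2 difference of at least 1. Framed pairs of PIN1a gather in the columns and rows of cortex and epidermis and along the top row, while the top row of PIN1b, the quiescent center, is mostly blue.

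Endodermis and cortex, the layers of the ground tissue, were set apart by both genes. PIN1a was 5.03 log2 units higher in the endodermis than in the cortex (SE 0.85, limma adjusted p = 3.67e-04) and PIN1b 3.19 log2 units higher (SE 0.65, limma adjusted p = 0.00187), with 5.71% of tested genes called higher in this pair. Without cortex replicate 3 the differences were 6.26 and 4.27 log2 units. For PIN1b the call was lost when these 2 groups were fitted alone (limma adjusted p = 0.0599). The stele was also higher than the cortex in PIN1a, by 3.32 log2 units (SE 0.85, limma adjusted p = 0.0287), in a pair with 2.27% of tested genes called higher. That call was lost on recovered reads with edgeR (2.28, adjusted p = 0.206) and DESeq2 (2.28, adjusted p = 0.0561). It was lost when these 2 groups were fitted alone (limma adjusted p = 0.0934). The same held without cortex replicate 1 (2.42, limma adjusted p = 0.162), cortex replicate 2 (2.98, 0.0853), stele replicate 1 (3.29, 0.105), stele replicate 2 (3.38, 0.0912) or stele replicate 3 (3.27, 0.0749). Without cortex replicate 3 the difference was 4.55 log2 units. PIN1b was 1.58 log2 units higher in the stele than in the cortex without being called (limma adjusted p = 0.191), and it was called without cortex replicate 3 (2.66, limma adjusted p = 0.00325).

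How narrowly each gene was distributed over the sorted tissues was described by an index, tau, that is 0 for equal means in the 5 tissues and 1 for a gene found in a single tissue. It was 0.792 for PIN1a and 0.854 for PIN1b, and its median over the tested genes was 0.566. The order of sorted tissue means seen for PIN1a, from quiescent center through endodermis, stele and cortex to epidermis, was shared by 674 of the 25555 tested genes (2.64%). That of PIN1b, with the quiescent center between cortex and epidermis, was shared by 567 genes (2.22%). Without cortex replicate 3, again chosen after seeing the data, the quiescent center stood above the cortex for PIN1b, an order shared by 584 genes (2.29%), and the order of PIN1a was as before. The highest sorted tissue of PIN1a, the quiescent center, was also that of 34.4% of tested genes, and the endodermis, that of PIN1b, was highest for 19.8%.

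Across the 24 libraries the log2 levels of PIN1a and PIN1b had a Pearson r of 0.61 and a Spearman rho of 0.48, and over the 8 group means r was 0.64 and rho 0.40. Without the 2 groups farthest from the median of PIN1a, r over the groups was 0.12. Over the 7 groups other than the quiescent center, r was 0.84, and it was 0.65 once the 2 farthest of these were left out. The r over the groups thus depended on which groups were included, and it was higher without the quiescent center. Libraries of a group share their tissue and sorting, and these values describe the libraries. Genes were ranked by r over the libraries if their mean reached 100 in some group, which left 20811. Among them PIN1b ranked 491 in likeness to PIN1a, and PIN1a ranked 1027 in likeness to PIN1b.

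The pattern of PIN1a was most closely followed by Zm00001d044534, with r = 0.95 over 24 libraries and 0.98 over 8 group means, and by Zm00001d047868, with r = 0.93 and 0.98. Zm00001d044534 averaged 2848 ± 182 in the quiescent center, 2641 ± 848 in the endodermis and 5.76 ± 5.02 in the epidermis (SD, n = 3 each). Zm00001d047868 averaged 172 ± 34.5, 216 ± 69.7 and 3.28 ± 1.57 in these groups, so its highest mean was in the endodermis. PIN1b was most closely followed by Zm00001d029402, with r = 0.95 over the libraries and 0.98 over the groups, and by Zm00001d022190, with r = 0.93 and 0.94. Zm00001d022190 averaged 417 ± 120 in the quiescent center, 3048 ± 812 in the endodermis and 117 ± 20 in the epidermis (SD, n = 3 each). For PIN1a and for PIN1b alike, 7 genes had an r above 0.9 (0.0336% of those ranked). The files give these identifiers no names, and the likeness is a description of these libraries.

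**Figure D5:**
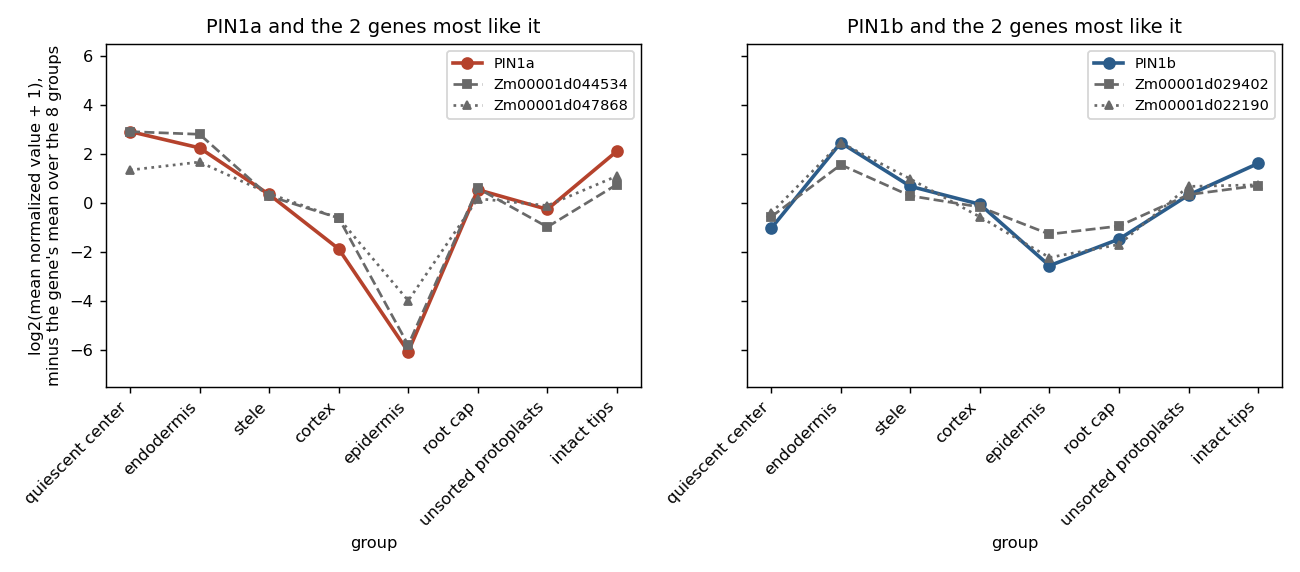
Group profiles of PIN1a (left) and PIN1b (right), each with the 2 genes whose log2 values follow it most closely over the 24 libraries. The vertical axis is log2(mean normalized value + 1) minus the mean of the same gene over the 8 groups, so only the shapes are compared. All 3 lines of the left panel are lowest in the epidermis, and all 3 of the right panel are highest in the endodermis.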

How the data were processed

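The deposited table holds normalized values, a signal in which the authors divided estimated reads per gene by a size factor per library, for 24 libraries. Trimmomatic, kallisto 0.43 and DESeq2 were used, per the submitters' processing notes, and a genome build is not given in the sources used here. Another 8 columns of group averages were not used. Values above 0 lay within 0.01 of whole multiples of 1 read, and reads were recovered from them. In 4 libraries the step lies so close to 1 that this is a weak test. kallisto estimates counts by dividing reads that match several genes between them, and how alike PIN1a and PIN1b are in sequence was not analysed here.

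Genes with a value of at least 10 in at least 3 libraries (25555) were fitted with limma 3.58.1 in R 4.3.3, on log2(value + 1), with 1 mean for each of the 8 groups, all 24 libraries sharing the spread, and a prior variance following the mean level. Adjustment within a comparison, over all tested genes, was that of Benjamini and Hochberg. Balance tests were exact two-sided permutations over libraries (Python 3.11.15). Alternatives included edgeR 4.0.16 and DESeq2 1.42.0 on recovered reads. The genes most like each member, 2 each, are those with the highest Pearson r among tested genes whose mean reached 100 in some group. Other auxin transport genes and tissue markers were not analysed here, since 0 of 39510 identifiers matched the reference table of 49888 genes. The members, comparisons and rules were chosen with earlier results of these data known. Reads of all pairs of libraries within a group differed beyond sampling noise, so none was treated as a library deposited again, which does not show that they are independent samples. Depth was 21978670 to 50289026 reads per library, and 3 reads, the limit that a count of 0 allows, were worth 1.81 to 4.46 units.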

Additional observations from a re-analysis of the deposited data

How the results depend on the processing

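Of 504 recomputed values in the 7 comparisons, 474 kept direction and threshold, 14 lost the threshold, 12 gained it and 4 turned, all in the cortex. Of 679 in pairs of sorted tissues, 649 kept both, 17 lost the threshold, 11 gained it and 2 turned. Many of the recomputed values could not change in log2 difference by construction, and only their adjusted p could. Such were fits without a library outside the comparison, with weights per group or with a replicate block. Except where fewer libraries or genes enter by construction, the cause of a change was not tested. For PIN1a in the cortex the log2 difference was −1.68 without the quiescent center, 0.0012 against stele and epidermis alone, −1.51 with edgeR, −1.46 with DESeq2 and −2.71 in the exact permutation test (adjusted p = 0.379). For PIN1b in the cortex it was 0.082 against stele and epidermis alone, 0.059 with edgeR and 0.060 with DESeq2. The exact permutation test left PIN1a at 3.57 in the endodermis and 4.57 in the quiescent center past no threshold. In the stele both genes passed when set against cortex and epidermis alone (PIN1a 4.97, PIN1b 2.45), PIN1a when quiescent center libraries were left out (2.74) and PIN1b with weights per group (1.29). PIN1b passed in the quiescent center with DESeq2 (−1.17, adjusted p = 0.0493). Fitted alone, PIN1b passed in protoplasts (−1.29) and PIN1a in the root cap (−1.55), and with edgeR PIN1a did not pass in protoplasts (−2.45).

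With each library left out, PIN1a ranged from −3.94 to −1.82 in the cortex, 1.21 to 1.74 in the stele and −3.24 to −1.99 in protoplasts. PIN1b ranged from −1.76 to −0.022 in the cortex, 1.13 to 1.56 in the stele, −1.38 to −0.52 in the quiescent center and −1.39 to −1.17 in protoplasts. The balance ranged from −4.61 to −3.39 in the epidermis, −0.71 to 0.92 in the endodermis, −0.26 to 0.62 in the stele and 5.22 to 6.12 in the quiescent center. With pseudocount 10 it was −1.43 in the epidermis, −0.66 in the endodermis and −0.72 in the stele. PIN1b in the quiescent center minus cortex turned to 0.78 without cortex replicate 3 and to 0.24 without quiescent center replicate 1, and was −0.96 at the lowest. Called pairs numbered 12 to 17 for PIN1a and 11 to 19 for PIN1b over these tests.

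The deviations of same-numbered libraries, 84 pairs, correlated at −0.0025 on average and above 0.1 in 14 pairs, and the best partner shared the number for 7 of 24 libraries, so the numbers were not taken as a pairing. With a replicate block 1 of 41 recomputed results changed its call, the balance in the epidermis (−4.00, exact adjusted p = 0.08), and called pairs numbered 14 for PIN1a and 15 for PIN1b. Pairs called without the quiescent center were not counted, and PIN1a in cortex and epidermis fitted alone gave no value, since it passed the filter on low values in neither. At this depth, PIN1a in the epidermis and in cortex replicates 1 and 2 lies near the limit of detection.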
